A study of Mus musculus with 11 samples.

Results

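The part of CD8+ T cell activation that is reached while the kinase mTOR is inhibited was read from 7 of the 11 libraries of the series, chosen by their labels: 3 libraries of cells given Torin together with the peptide N4 and 4 libraries of naive, untreated cells. Every library comes from OT-I CD8+ T cells at 12 h. OT-I mice carry a transgenic T cell receptor that recognises an ovalbumin peptide on the class I molecule H-2Kb, N4 is the usual name of that native peptide, and Torin is the name of a family of ATP-competitive inhibitors of mTOR. The remaining 4 libraries, given the solvent DMSO and N4 and called stimulated below, served as the reference for activation with mTOR free to act. The Torin libraries carry the replicate numbers 1, 3 and 4, and the other groups the numbers 1 to 4. The labels state no dose, no age or sex of the mice, and do not say whether numbered libraries came from separate mice, so the p-values measure the spread between these libraries, which may be technical. No group with Torin but without N4 was analysed here, so within a difference between Torin and naive libraries the parts of N4 and of Torin cannot be told apart.

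In a naive CD8+ T cell, engagement of the receptor starts calcium, MAP kinase and NF-kB signalling, which induces early transcription factors, and the cell then leaves quiescence, grows and arms itself with cytokines and cytotoxic granules. mTOR works in a pair of protein complexes that sense nutrients and growth signals. It promotes the translation of mRNAs for ribosomal proteins, raises the transcription factors ATF4, HIF-1 and SREBP, and through AKT keeps FOXO factors out of the nucleus, where they would sustain naive genes such as Klf2 and Il7r. Levels of mRNA do not show translation, so changes in translation are outside these measurements.

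Naive and Torin libraries differed in 7163 of 22238 genes tested (32.2%) by edgeR's quasi-likelihood test with Benjamini-Hochberg adjustment over all genes, the threshold being an adjusted p of 0.05. Of these, 3648 (16.4%) were higher and 3515 (15.8%) lower with Torin and N4, and 2489 and 2904 of them changed at least 2-fold. Values are CPM, counts brought to a common library total with edgeR's composition factors, so they give a gene's part of the mRNA and not its amount per cell, and fewer cells of a type cannot be told apart from less of an mRNA in each cell. Torin and stimulated libraries differed in 1027 genes (4.62%), with 515 higher (2.32%) and 512 lower (2.3%) under Torin, and stimulated and naive libraries in 8773 (39.5%), with 4272 higher (19.2%) and 4501 lower (20.2%). Both contrasts against naive libraries use the same 4 naive libraries, so they are only set side by side below, and the test of their difference is the contrast of Torin with stimulated libraries. The median log2 difference of Torin minus naive over all genes was -0.18, and 50.9% of the changed genes were higher. With library totals alone as the scale the median was -0.52, and 2284 genes were higher and 4553 lower (33.4% higher), so small rises named below depend on the scale.

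Estimated totals lay between 241865667 and 405884097 counts per library. The markers of CD8 T cells summed to 4220 to 4453 CPM in the Torin libraries and 5308 to 6801 CPM in the naive libraries, and all 8 were detected in each library. Granulocyte markers reached 8607 CPM in naive library 2 against 136 to 178 CPM in the other naive libraries and 16.7 to 50.7 CPM with Torin. B cell markers reached 48360 CPM in naive library 4 and 13400 CPM in Torin library 4, against at most 370 CPM elsewhere among these 7 libraries. Among the stimulated libraries, granulocyte markers reached 2071 CPM in library 2 and B cell markers 14590 CPM in library 4, so libraries numbered 4 held the most B cell markers in all 3 groups. Naive libraries 1 and 2 also held more of several induced mRNAs than naive libraries 3 and 4, as the values below show. Without the libraries numbered 4, 2941 genes were higher and 2333 lower with Torin.

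The contrast of Torin with stimulated libraries was more fragile than that with naive libraries. Its 1027 genes became 261 without Torin library 1, 144 without Torin library 3, 541 without Torin library 4, 463 without stimulated library 2 and 441 without stimulated library 4, and 55 without the libraries numbered 4. Of the 72 genes named in the text with a call in that contrast, 23 kept it when any single library was left out. They were Btg1, Ccr7, Cd28, Cd83, Cdkn2d, Cxcr4, Dusp5, Eif4ebp1, Map1lc3b, Nars, Npc2, Phgdh, Prf1, Psmb10, Psph, Ptms, Rasgef1b, Sesn2, Sh2d1a, Slc7a5, Tnfsf4, Trib3 and Ubash3a. In every alternative run, 10 of the 72 kept it, namely Cxcr4, Dusp5, Phgdh, Psmb10, Psph, Ptms, Sh2d1a, Slc7a5, Trib3 and Ubash3a. The others of the 23 lost it without the libraries numbered 4. The named calls in that contrast outside the 23, whether or not marked below, were lost without at least 1 library. Of the 122 named genes called against naive, 105 kept the call when any single library was left out. No named gene changed direction where it was called. The size of the differences moved less than the calls, as given with each group below.

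**Figure D1:**
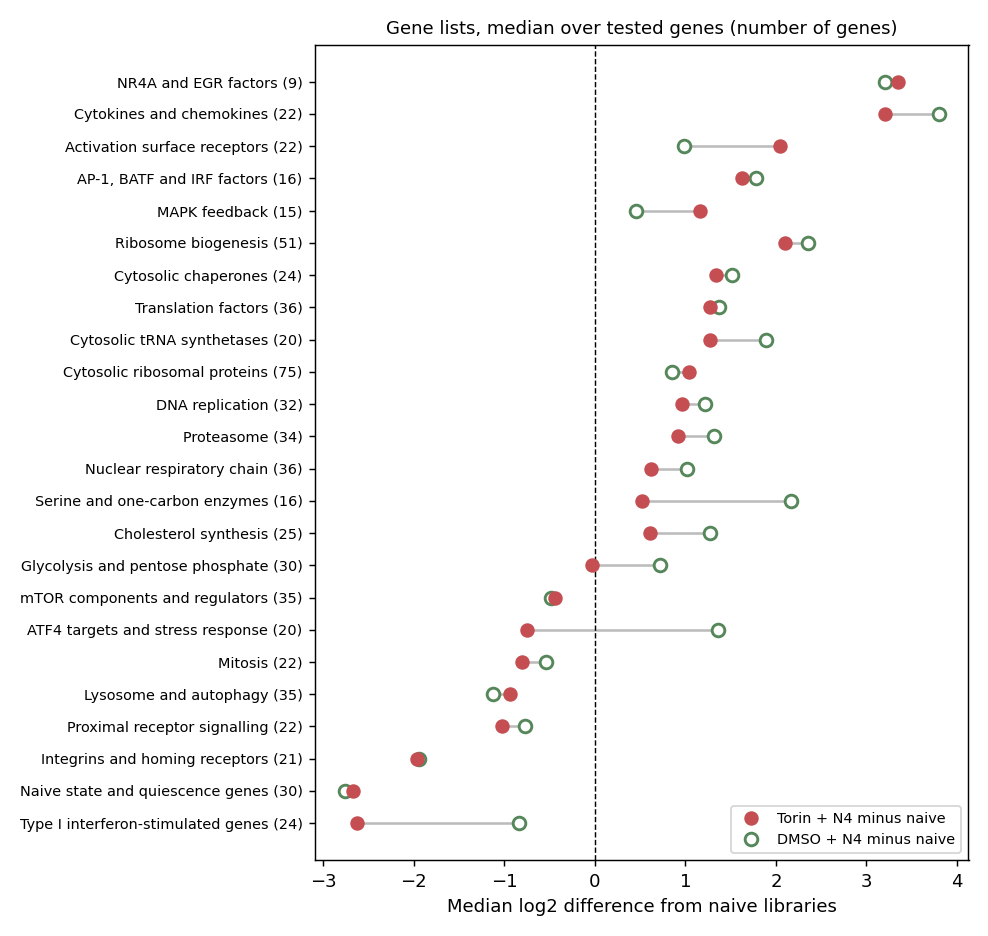
Median log2 difference from the naive libraries for the genes of 24 lists, with Torin and N4 (filled circles) and with DMSO and N4 (open circles); the horizontal axis is log2 and the dashed line is 0. The circles of ribosome biogenesis lie at 2.1 and 2.35, those of ATF4 targets at -0.75 and 1.36, and those of type I interferon-stimulated genes at -2.63 and -0.84; both contrasts share the naive libraries.

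Early transcription factors of receptor signalling were raised with mTOR inhibited. Of 9 NR4A and EGR factors 6 were higher than in naive libraries and 0 lower (edgeR, DESeq2 and an unadjusted p under 0.05 alike), with a list median of 3.35 on the log2 scale, and 8 of 16 AP-1, BATF and IRF factors were higher. Between Torin and stimulated libraries, edgeR called 0 of the 9 (1 at an unadjusted p under 0.05 and 1 by DESeq2) and 1 of the 16. It called 4.62% of all genes in that contrast. Nr4a1, an orphan nuclear receptor that follows receptor signal strength, was at 35.1, 11.4, 3.24 and 5.24 CPM in naive libraries 1 to 4, 221, 196 and 123 CPM in Torin libraries 1, 3 and 4, and 171, 112, 137 and 101 CPM in stimulated libraries. Every Torin library lay above every naive library, within or above the stimulated range (log2 difference from naive 3.71 ± 0.69 (SE), adjusted p = 0.0019, and from stimulated 0.47 ± 0.64, adjusted p = 0.77). Irf4, which scales effector differentiation with receptor signal, rose from 7.64, 2.35, 0.969 and 4.13 to 91.1, 104 and 90.6 CPM, against 51.7, 75.9, 85.6 and 64.4 CPM in stimulated libraries. Its Torin libraries all lay above its stimulated ones, but the difference from them did not pass the test (adjusted p = 0.69, against 1.5e-04 for the rise over naive). Egr2 rose by 4.02 ± 0.69 (adjusted p = 0.0013). Fos was the exception in its list: at 26.7, 39.3 and 15.6 CPM it was above the naive (7.02, 14.7, 3.78 and 2.5 CPM) and the stimulated libraries (6.3, 6.39, 3.86 and 3.45 CPM), with adjusted p of 0.018 and 0.034, the former becoming 0.081 without Torin library 3.

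The machinery of receptor signalling was itself remodelled. Of 22 proximal signalling genes 14 were lower and 6 higher than naive with Torin, with a median of -1.03. Plcg1, which carries the signal to calcium, was lower, at -3.28 on the log2 scale (adjusted p = 0.025, but 0.093 without Torin library 4), and Lck, the kinase that starts the cascade, fell by 1.58. Zap70, the kinase recruited to the engaged receptor, rose from 56.3, 47.1, 58.8 and 47 to 198, 229.5 and 130 CPM. Malt1, a protease of NF-kB signalling, rose from 9.31, 7.44, 5.49 and 7.13 to 30.4, 32.2 and 31.3 CPM, above the 15.6, 19.9, 7.73 and 10.3 CPM of stimulated libraries (adjusted p = 0.041). Its call against stimulated libraries was lost in 11 of 19 alternatives, 8 of which left out a single library. Of 15 genes that feed back on MAP kinases 6 were higher and 4 lower. Among 18 NF-kB subunits and feedback genes 5 were higher, led by Nfkbid (2.17 ± 0.29) and Nfkb1 (2.16 ± 0.16), and 4 were lower. The shares over all genes were 16.4% higher and 15.8% lower. Icam1, an adhesion ligand and NF-kB target, was lower than in both other groups at 57.8, 47.5, 36.7 and 32.2 CPM in naive, 16.2, 16.4 and 18 CPM in Torin and 48, 37.7, 29.6 and 37.4 CPM in stimulated libraries (adjusted p = 9.3e-04 and 0.018).

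Myc, the transcription factor that drives growth metabolism in activated T cells, reached its stimulated level under Torin. It stood at 46.2, 40.4, 13.5 and 20.1 CPM in naive libraries and at 428, 436 and 434 CPM in Torin libraries, a rise of 3.85 ± 0.36 (adjusted p = 5.5e-05). Stimulated libraries had 271, 246, 267 and 243 CPM, below each Torin library, with an adjusted p of 0.25 for that difference. Of the other 11 genes of the Myc network, 2 fell with Torin, the repressor partners Mxd1 (-1.65 ± 0.46, adjusted p = 0.017, but 0.073 without Torin library 1) and Mxd4 (-2.29 ± 0.39). The share lower over all genes was 15.8%.

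Surface receptors of activated T cells rose as a group. Of 22 listed receptors 16 were higher than in naive libraries and 1 lower, with a median of 2.04, and 5 were higher than in stimulated libraries with 0 lower (edgeR; 1 at an unadjusted p under 0.05 and 1 by DESeq2). Il2ra, the high-affinity subunit of the interleukin-2 receptor, rose from 19.8, 8.19, 2.92 and 1.76 to 184, 170 and 217 CPM, and stimulated libraries had 187, 222, 174 and 193 CPM. The Torin and stimulated ranges overlapped, with a difference of -0.03 ± 0.62 (adjusted p = 0.99). Cd69, an early activation antigen that retains cells in lymphoid tissue, rose from 67.5, 63.1, 68.9 and 75.6 to 182, 183 and 175 CPM (adjusted p = 4.0e-04). Slamf1, a self-ligand receptor of activated T cells, had the largest rise of the list, 4.55 ± 0.58. Il2rg, the shared cytokine receptor chain, was the member that fell, by 0.95 (adjusted p = 0.0064).

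The 5 receptors above the stimulated level were Cd83, Cd44, Cd28, Tnfsf4 and Cd27. Cd83, an immunoglobulin-family activation marker, was at 12.2, 14.2, 5.65 and 19.8 CPM in naive, 87.3, 83.8 and 155 CPM in Torin and 21.4, 20.9, 16.5 and 26 CPM in stimulated libraries. All Torin libraries exceeded all others, by 3.07 ± 0.38 over naive and 2.36 ± 0.37 over stimulated libraries (adjusted p = 1.8e-04 and 0.009). Cd44, the hyaluronan receptor used to mark antigen-experienced T cells, had 8.23, 22.1, 6.34 and 17.6 CPM in naive, 63.2, 75 and 90.2 CPM in Torin and 19.1, 20.2, 21.1 and 22 CPM in stimulated libraries (adjusted p = 5.2e-04 and 0.02, the latter 0.083 without Torin library 3). Cd28, the receptor for costimulatory B7 ligands, stood at 60.8, 37.7, 58.1 and 63.5 CPM in naive, 130, 134 and 158 CPM in Torin and 54.8, 45.5, 57 and 47.7 CPM in stimulated libraries. Its rise of 1.35 ± 0.18 was seen with Torin (adjusted p = 2.9e-04), while stimulated libraries differed from naive by -0.10 ± 0.17 (adjusted p = 0.67). Tnfsf4, the ligand OX40L, was 2.05 ± 0.34 above the stimulated level, and Cd27 was 1.06 ± 0.24 above it. Without Torin library 3 the call of Cd27 was lost (edgeR, adjusted p = 0.15).

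**Figure D2:**
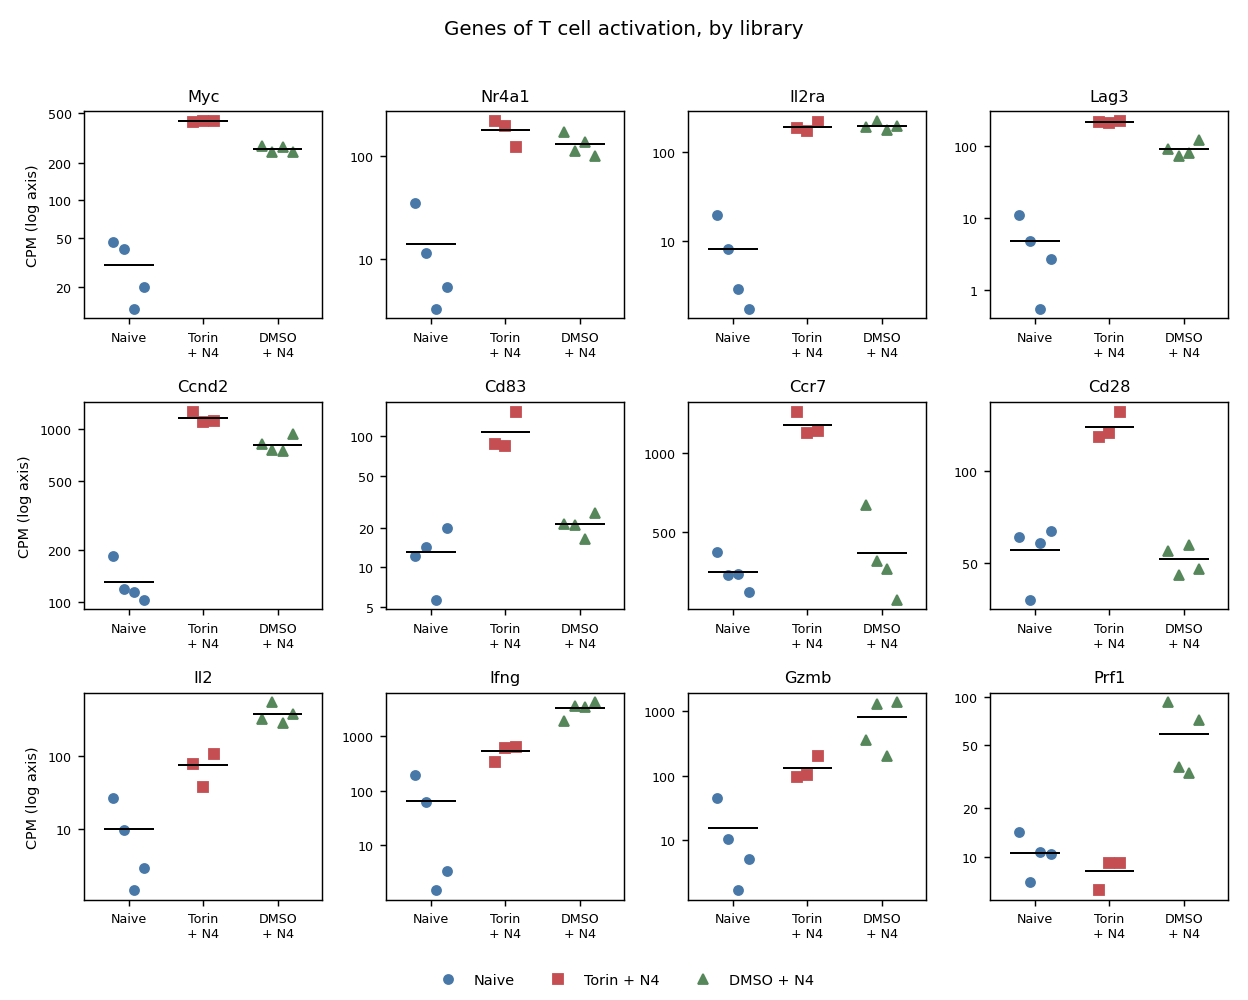
CPM on a log axis in each library for 12 genes of activation, with circles for naive, squares for Torin and triangles for stimulated libraries; each symbol is 1 library and the short line is the group mean. Torin libraries of Myc and Lag3 sit at or above the stimulated libraries, and those of Il2ra overlap with them. Torin libraries of Il2, Gzmb and Ifng sit between the groups, those of Prf1 with the naive libraries at 6.14, 9.09 and 9.08 CPM, and those of Cd83 above both groups.

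Cytokine and chemokine mRNAs rose less evenly. Of 22 listed genes 12 were higher than naive and 1 lower, with a median of 3.20, against 16 higher and 2 lower in stimulated libraries with a median of 3.80. Without the libraries numbered 4 the count of rises was 6. Il2 rose from 26.4, 9.46, 1.42 and 2.88 to 78.4, 37.1 and 107 CPM (adjusted p = 0.018, but 0.11 without the libraries numbered 4), and stimulated libraries held 325, 543, 284 and 373 CPM. All Torin libraries lay between the naive and the stimulated ones, but the step up to the stimulated level, -2.36 ± 0.85 as Torin minus stimulated, did not pass the test (adjusted p = 0.15). Ifng, the type II interferon, lay in between in the same way at 189, 62.6, 1.5 and 3.34 CPM in naive, 336, 593 and 628 CPM in Torin and 1863, 3516, 3320 and 4096 CPM in stimulated libraries. With naive values from 1.5 to 189 CPM, its difference of 3.02 ± 1.19 from naive missed the threshold (adjusted p = 0.076), as did that of Tnf (1.61 ± 0.61, adjusted p = 0.066). The chemokines Ccl4 and Xcl1, which recruit other leukocytes and dendritic cells, rose by 4.45 ± 0.97 and 4.27 ± 1.05 (adjusted p = 0.0049 and 0.0094), and Ccl1 by 5.57 ± 1.52 (adjusted p = 0.016, but 0.051 without the libraries numbered 4). Ltb, a lymphotoxin subunit made by naive cells, fell from 3413, 3715, 4091 and 4601 to 461, 255 and 205 CPM, level with the stimulated libraries (574, 126, 231 and 201 CPM).

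The chemokine Ccl5, a product of memory and effector cells, was the gene of that list that differed between Torin and stimulated libraries. It was at 562, 1256, 2190 and 3100 CPM in naive libraries and 1700, 4645 and 2467 CPM in Torin libraries, which overlap, and at 193, 226, 439 and 254 CPM in stimulated libraries, all lower (Torin minus stimulated 3.40 ± 0.55, adjusted p = 0.011).

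Of 17 genes of cytotoxic granules and death ligands, 7 were higher and 2 lower than naive with Torin (median 0.03), where 16.4% of all genes were higher and 15.8% lower. Gzmb, the granzyme most tied to killing, rose from 45.6, 10.6, 1.68 and 5.16 to 96.6, 104 and 203 CPM (adjusted p = 0.034, but 0.084 without Torin library 4) and lay below every stimulated library (365, 1285, 206 and 1374 CPM). Prf1, which encodes the pore-forming protein that lets granzymes enter a target, was at 14.3, 6.91, 10.6 and 10.4 CPM in naive, 6.14, 9.09 and 9.08 CPM in Torin and 92, 36.4, 33.3 and 71.4 CPM in stimulated libraries. It was the only member that differed between Torin and stimulated libraries, by -2.85 ± 0.41 (adjusted p = 0.0068), and its difference from naive was -0.38 ± 0.37 (adjusted p = 0.48). Inhibitory receptors and brakes moved both ways, with 10 of 21 higher than naive and 8 lower (median 0.53). Lag3, a ligand of class II molecules, went from 11, 4.88, 0.555 and 2.71 to 216, 207 and 224 CPM. Pdcd1, which encodes PD-1, went from 8.43, 5.17, 1.77 and 5.31 to 33.1, 28.2 and 27.5 CPM. The cytokine-signal suppressors Socs1 and Socs3 were lower (-1.37 ± 0.42, adjusted p = 0.028, but 0.11 without Torin library 1, and -3.05 ± 0.59, adjusted p = 0.0025).

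Regulators of fate did not move as a block, with 5 of 18 higher and 2 lower than naive, where 16.4% of all genes were higher and 15.8% lower. Eomes, a T-box factor of memory cells, was at 7.76, 4.58, 6.26 and 13.8 CPM in naive, 38.9, 31.8 and 43.8 CPM in Torin and 9.6, 5.16, 8.34 and 14.9 CPM in stimulated libraries. It rose by 2.23 ± 0.40 over naive and stood 2.01 ± 0.40 above the stimulated level (adjusted p = 0.0015 and 0.021). Tbx21, the related effector factor T-bet, was at 24, 19.5 and 19.3 CPM with Torin and 10.9, 6.68, 16.9 and 14.1 CPM in naive libraries (adjusted p = 0.083). Runx3, which sustains the cytotoxic lineage, fell from 52.3, 45.5, 44.2 and 47.4 to 5.83, 10.7 and 10.9 CPM, below the 24.2, 20.9, 19.1 and 18.9 CPM of stimulated libraries (adjusted p = 5.8e-05 and 0.016). Id3 was at 409, 339.8 and 198 CPM with Torin, close to naive (285, 198, 217 and 257 CPM) and above stimulated libraries (142, 65, 112 and 39.3 CPM, adjusted p = 0.028).

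Most naive-state mRNAs fell with Torin as they did in stimulated libraries. Of 30 genes of the naive state and quiescence, 23 were lower and 2 higher than in naive libraries with Torin (median -2.67), and 23 were lower in stimulated libraries. The 2 that rose were Foxp1, a factor that maintains quiescence (0.77 ± 0.21, adjusted p = 0.016, but 0.064 without Torin library 1), and Ccr7. S1pr1, the receptor for exit from lymph nodes, fell from 264, 154, 190.1 and 174 to 1.28, 0.942 and 0.894 CPM, and stimulated libraries had 22.7, 2.45, 2 and 0.984 CPM. Klf2, the factor that maintains S1pr1 and quiescence, fell from 794, 549, 686 and 531 to 31.9, 36 and 17.9 CPM (adjusted p = 0.015, but 0.062 without Torin library 4). Il7r, the receptor for the survival cytokine interleukin-7, fell from 125, 87, 163 and 126 to 2.21, 2.95 and 7.43 CPM (adjusted p = 0.0012). Lef1 and Tcf7, partner factors of naive and stem-like cells, were lower, at -3.32 and -1.88 on the log2 scale (adjusted p = 3.0e-05 and 0.0067), and the cell-cycle inhibitors Cdkn1b and Cdkn2d were at -3.57 and -4.27. Cdkn2d, at 20.4, 19.7 and 18.6 CPM, also lay below the stimulated libraries (68.5, 71.3, 48.4 and 51.7 CPM, adjusted p = 0.0058).

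Ccr7, the chemokine receptor for entry into lymph nodes, rose from 423, 344, 346 and 297 to 1442, 1194 and 1221 CPM, while stimulated libraries had 634, 389, 362 and 278 CPM. Each Torin library was above all 8 others (adjusted p = 2.6e-04 against naive and 0.0075 against stimulated libraries). Cxcr4, another homing receptor, was at 23.4, 25.1, 37.2 and 34.6 CPM in naive, 15.5, 29.8 and 13.7 CPM in Torin and 1.9, 1.73, 1.66 and 1.17 CPM in stimulated libraries (3.61 ± 0.31 for Torin minus stimulated, adjusted p = 9.4e-04). Btg1 and Actn1 fell less with Torin than in stimulated libraries, by 0.95 and 0.96 against naive and with Torin minus stimulated at 1.14 and 1.13. Among 20 FOXO targets and PI3K regulators 14 were lower and 1 higher than naive with Torin, and 5 were higher than in stimulated libraries with 0 lower (edgeR; 2 at an unadjusted p under 0.05 and 2 by DESeq2).

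Genes of ribosome production rose almost throughout. Of 51 ribosome biogenesis genes 50 were higher than naive in Torin libraries, with a median of 2.1, and 50 in stimulated libraries, with a median of 2.35. Between Torin and stimulated libraries 1 of the 51 differed, where edgeR called 4.62% of all genes. It was Imp3, lower by 0.54 with Torin (adjusted p = 0.037), a call lost in 12 of 19 alternatives, 7 of which left out a single library. The list median of the difference between Torin and stimulated libraries was -0.20. Fbl, the methyltransferase of ribosomal RNA, rose from 120.1, 116, 81.9 and 77.8 to 432, 462 and 401 CPM, overlapping with the stimulated libraries (448, 440.3, 562 and 464 CPM). Polr1b, a subunit of the polymerase that makes ribosomal RNA, rose from 2.05, 1.35, 2.37 and 1.57 to 14.4, 18.9 and 15.6 CPM (adjusted p = 3.0e-05), and Gnl3, the nucleolar GTPase nucleostemin, by 2.84 ± 0.21. Of 75 cytosolic ribosomal protein genes 72 were higher than naive (median 1.04), 6 were higher and 1 lower than in stimulated libraries. Rps6 rose from 919.6, 786, 1084 and 769.6 to 1488, 1915 and 1562 CPM, and of 36 translation factors 31 were higher. Eef1a1, the elongation factor that brings aminoacyl-tRNA to the ribosome, was at 2256, 2118 and 2266 CPM with Torin, above naive (1007, 967, 1259 and 879.9 CPM) and stimulated libraries (1376, 1254, 1393 and 1233 CPM, adjusted p = 0.016).

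Other growth programmes rose with Torin in part. In the list for mitochondrial ribosome and import, 31 of 36 genes were higher than naive, and 5 were lower than in stimulated libraries. Of 32 genes of nucleotide and polyamine synthesis 23 were higher, among them Srm, the spermidine synthase, at 144, 74.9, 25.1 and 22.8 CPM in naive libraries and 683, 686 and 565 CPM in Torin libraries (adjusted p = 0.0011). Of 36 nuclear genes of the respiratory chain 23 were higher than naive with a median of 0.62, but 9 were lower than in stimulated libraries, which had 30 of 36 higher and a median of 1.02. Cycs, cytochrome c, lay in between at 379.6, 468, 277 and 263 CPM in naive, 1252, 985 and 1298 CPM in Torin and 2050, 3084, 3235 and 2509 CPM in stimulated libraries (adjusted p = 2.5e-04 and 0.022). With library totals alone 13 of the 36 respiratory chain genes were higher than naive.

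Of 24 G1 cyclins, CDKs and inhibitors 5 were higher and 8 lower than naive with Torin (median -0.41), against 6 and 8 in stimulated libraries. Over all genes, 16.4% were higher and 15.8% lower than naive with Torin, and 19.2% and 20.2% in stimulated libraries. Ccnd2, the D-type cyclin induced by receptor signals, rose from 184, 119, 114 and 103 to 1257, 1088 and 1114 CPM (adjusted p = 2.5e-05). Ccnd3, another D-type cyclin, fell from 203, 199.9, 154 and 149.7 to 45.4, 40.2 and 43.3 CPM, below the stimulated libraries at 84.1, 88.5, 65.4 and 77 CPM (adjusted p = 0.016). Of 32 DNA replication genes 22 were higher than naive and 2 lower, against 20 and 3 in stimulated libraries, and with library totals alone as the scale 10 of the 32 were higher. Of 22 mitosis genes 0 were higher by edgeR (1 at an unadjusted p under 0.05 and 0 by DESeq2) and 2 were lower. Mki67, the proliferation antigen, was at 0.248, 0.594 and 1.31 CPM with Torin and 1.19, 2.44, 1.55 and 3.66 CPM in naive libraries. Cdkn1a, the CDK inhibitor p21, was at 147, 178, 27.9 and 78.4 CPM in naive, 121, 110.2 and 109 CPM in Torin and 819, 385, 326 and 669 CPM in stimulated libraries. The Torin libraries lay inside the naive range and under every stimulated library (adjusted p = 0.93 and 0.044, the latter 0.18 without Torin library 3). Of 20 p53 targets, the list that holds Cdkn1a, 6 were lower and 1 higher in Torin than in stimulated libraries.

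The ATF4 group did not follow the stimulated libraries. ATF4 is a transcription factor whose targets make and import amino acids and charge tRNAs, and it answers to mTOR as well as to stress. Of 20 ATF4 targets and stress genes 1 was higher and 5 lower than naive with Torin (median -0.75), 10 were higher and 1 lower in stimulated libraries (median 1.36), and 8 were lower and 0 higher (by edgeR, DESeq2 and an unadjusted p under 0.05 alike) in Torin than in stimulated libraries (median -2.36), where 2.3% of all genes were lower. The 8 became 5 without stimulated library 1 or 2, 3 without Torin library 1 or 3, 4 without Torin library 4 and 1 without the libraries numbered 4, while the list median of that difference stayed between -2.57 and -2.14 in all alternatives run. Atf4 itself was the member that rose, from 85.9, 64.7, 64.2 and 65.6 to 99, 127 and 112 CPM, below the 222, 237, 236 and 133 CPM of stimulated libraries (adjusted p = 0.027 and 0.043, the former 0.1 without Torin library 3 and the latter 0.17 without Torin library 1). The call of Atf4 against stimulated libraries was lost in 14 of 19 alternatives, 9 of which left out a single library. Trib3, a pseudokinase that feeds back on ATF4, was at 15.2, 12.6, 8.63 and 19 CPM in naive, 0.625, 1.3 and 1.4 CPM in Torin and 38.9, 38.1, 30.5 and 17.6 CPM in stimulated libraries. Every Torin library was below every other library, by -3.64 ± 0.42 against naive and -4.82 ± 0.44 against stimulated libraries (adjusted p = 1.2e-04 and 9.4e-04). Ddit4, which encodes the mTOR inhibitor REDD1, had 5.08, 14.9, 3.06 and 19.4 CPM in naive, 1.68, 1.03 and 1.6 CPM in Torin and 22.5, 18.2, 13.6 and 14.2 CPM in stimulated libraries (adjusted p = 0.0035 and 0.013). Sesn2, a leucine sensor upstream of mTOR, was lower than naive by the test (-1.43 ± 0.48, adjusted p = 0.044, but 0.15 without Torin library 1), with Torin library 3 inside the naive range. Eif4ebp1, the translation repressor that mTOR phosphorylates, stayed at 126, 141 and 141 CPM, inside the naive range (136, 196, 77.2 and 121 CPM), against 728, 733, 825 and 418 CPM in stimulated libraries (adjusted p = 0.94 and 0.0058).

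Of 35 mTOR components and regulators 4 were higher and 10 lower than naive with Torin (median -0.44), where 16.4% of all genes were higher and 15.8% lower, and 2 were higher and 2 lower than in stimulated libraries. Mtor, the kinase, rose from 6.54, 6.52, 6.68 and 8.52 to 12.5, 13.1 and 14.4 CPM (adjusted p = 0.0022), and stimulated libraries had 12.7, 14.2, 15 and 10.3 CPM. Sesn1, Castor1 and Castor2, of the families that sense leucine and arginine, and the lysosomal factor Tfeb fell by 2.58, 1.96, 3.93 and 2.34 (adjusted p between 3.0e-04 for Sesn1 and 0.025 for Castor1, the latter 0.083 without Torin library 3). Ulk1, the kinase that starts autophagy and is held in check by mTOR, was at 10.1, 7.55, 12.3 and 7.79 CPM in naive, 5.05, 6.19 and 5.6 CPM in Torin and 2.51, 1.96, 3.58 and 2.9 CPM in stimulated libraries. The Torin libraries lay between the other groups, with 1.04 ± 0.25 above the stimulated level (adjusted p = 0.04) and -0.75 ± 0.25 against naive (adjusted p = 0.041, but 0.15 without Torin library 4).

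Of 16 serine and one-carbon enzymes 7 were higher and 1 lower than naive with Torin (median 0.52), against 11 higher and 1 lower in stimulated libraries (median 2.17), and 4 were lower in Torin than in stimulated libraries. Phgdh, the enzyme that opens serine synthesis, was at 85.8, 48, 34.2 and 37.8 CPM in naive, 56.5, 49.9 and 54.6 CPM in Torin and 475, 457, 324 and 324 CPM in stimulated libraries. Its Torin libraries lay within the naive range and -2.88 ± 0.33 from the stimulated level (adjusted p = 0.0037), and Psph, the phosphatase that closes the pathway, differed from it by -2.99 ± 0.35. Shmt2, which moves the serine carbon into the mitochondrial folate pool, rose to 235, 215 and 244 CPM from 112, 57.6, 37.7 and 27.2 CPM and stayed under 589.8, 468, 433 and 438 CPM (adjusted p = 0.0026 against naive and 0.16 against stimulated libraries). Of 20 cytosolic tRNA synthetases 15 were higher than naive with Torin (median 1.27) and 18 in stimulated libraries (median 1.89), and 6 were lower in Torin than in stimulated libraries, namely Nars, Sars, Yars, Gars, Tars and Iars. The 6 became 2 without stimulated library 2 or Torin library 1, 1 without Torin library 3 and 0 without the libraries numbered 4, with the median between -0.75 and -0.51. Sars, which charges serine tRNA, was at 78.7, 49.1, 47.7 and 41.8 CPM in naive, 69.8, 62.5 and 70.7 CPM in Torin and 209, 201, 158 and 157 CPM in stimulated libraries. Slc7a5, the transporter of large neutral amino acids, was intermediate at 11.7, 8.39, 8.14 and 7.82 CPM in naive, 29.8, 30.9 and 32.7 CPM in Torin and 109.8, 97.5, 92.2 and 63.9 CPM in stimulated libraries, and both steps passed the test (adjusted p = 1.1e-04 and 0.0058).

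The core of the amino acid response element, TGATGNAA, was looked for on both strands in the 250 bases before the start site of the RefSeq promoter table (build GRCm38.p6), which had entries for 18 of the 20 ATF4-list genes and 13 of the 20 tRNA synthetases. It was found in 5 of the 18 and 3 of the 13 (27.8% and 23.1%), against 3.91% of 27025 genes in that table. Of these list members only Chac1, Gars and Tars were lower than in stimulated libraries. Most lower members of both lists were not among the genes found to hold the core. The stretches that hold it in the list members that were lower than in stimulated libraries are shown, 5′ to 3′ along the gene, with the match in capitals (all are matches on the opposite strand). A match is a stretch of letters and no evidence of binding.
Chac1 (chr2:119351024-119351081, plus strand): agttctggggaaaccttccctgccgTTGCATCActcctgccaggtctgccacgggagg
Gars (chr6:55037946-55038000, plus strand): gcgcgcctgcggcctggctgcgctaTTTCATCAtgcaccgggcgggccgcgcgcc
Tars (chr15:11399659-11399698, minus strand): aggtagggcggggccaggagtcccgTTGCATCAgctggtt
Chac1, which degrades glutathione, was at 4.33, 1.69, 0.171 and 5.03 CPM in naive, 2.12, 1.15 and 2.1 CPM in Torin and 37, 37.2, 45.5 and 13.3 CPM in stimulated libraries (Torin minus stimulated -4.22 ± 0.94, adjusted p = 0.032). Gars and Tars, the synthetases for glycine and threonine tRNA, were -1.31 and -1.08 on that scale (adjusted p = 0.027 and 0.024).

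Genes of glycolysis rose and fell in equal number against naive libraries, where 16.4% of all genes were higher and 15.8% lower with Torin. Of 30 genes of glycolysis and the pentose phosphate pathway 7 were higher and 7 lower than naive with Torin (median -0.03), 15 higher and 2 lower in stimulated libraries (median 0.72), and 10 were lower and 1 higher in Torin than in stimulated libraries. The 10 became 4 without stimulated library 4, 1 without Torin library 1 or 3, 5 without Torin library 4 and 0 without the libraries numbered 4, while the median of the difference between Torin and stimulated libraries stayed between -1.03 and -0.80. Ldha, the lactate dehydrogenase subunit of glycolytic cells, was at 715, 772, 358 and 453 CPM in naive, 746, 554 and 742 CPM in Torin and 3068, 2400, 1952 and 2525 CPM in stimulated libraries. The naive and Torin ranges overlapped (difference 0.25 ± 0.27, adjusted p = 0.53), and the stimulated libraries were all higher (Torin minus stimulated -1.87 ± 0.28, adjusted p = 0.0076). Pgk1, Pkm, Eno1, Tpi1 and Pfkp shared that pattern, with Torin minus stimulated between -2.02 for Tpi1 and -1.35 for Pkm, adjusted p between 0.013 for Eno1 and 0.048 for Tpi1, and none past the threshold against naive. The call of Tpi1 was lost in 13 of 19 alternatives. Hk2, the inducible hexokinase, rose with Torin from 8.49, 11.2, 2.05 and 9.55 to 36.6, 41 and 33.6 CPM (adjusted p = 0.0022). Hk1, the constitutive form, fell from 18.4, 15.8, 15.5 and 16.9 to 6.51, 7.2 and 5.36 CPM and stood at 18.9, 15.7, 10.6 and 20.7 CPM in stimulated libraries (adjusted p = 9.2e-04 and 0.012). Slc2a1, the glucose transporter, was at 24.2, 24.5 and 22.6 CPM with Torin and 29.7, 45.3, 17.8 and 27.2 CPM in naive libraries (adjusted p = 0.4).

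Other targets of HIF-1, the hypoxia-inducible factor that also raises glycolytic genes, were mixed. Of 20 listed targets 2 were higher and 7 lower than naive with Torin, where 16.4% of all genes were higher and 15.8% lower. In stimulated libraries 6 were higher and 5 lower. Vegfa, the vascular growth factor, was at 0.871, 2.44, 0.438 and 2.2 CPM in naive, 1.61, 0.577 and 0.538 CPM in Torin and 13.6, 12.6, 7.48 and 7.57 CPM in stimulated libraries (Torin minus stimulated -3.50 ± 0.67, adjusted p = 0.019). Ndrg1, a stress gene linked to T cell tolerance, went the other way, at 4.09, 8.01, 5.87 and 6.76 CPM in naive, 40.6, 49.9 and 37.8 CPM in Torin and 10.5, 12.1, 18.3 and 8.09 CPM in stimulated libraries (adjusted p = 8.1e-05 and 0.01).

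**Figure D3:**
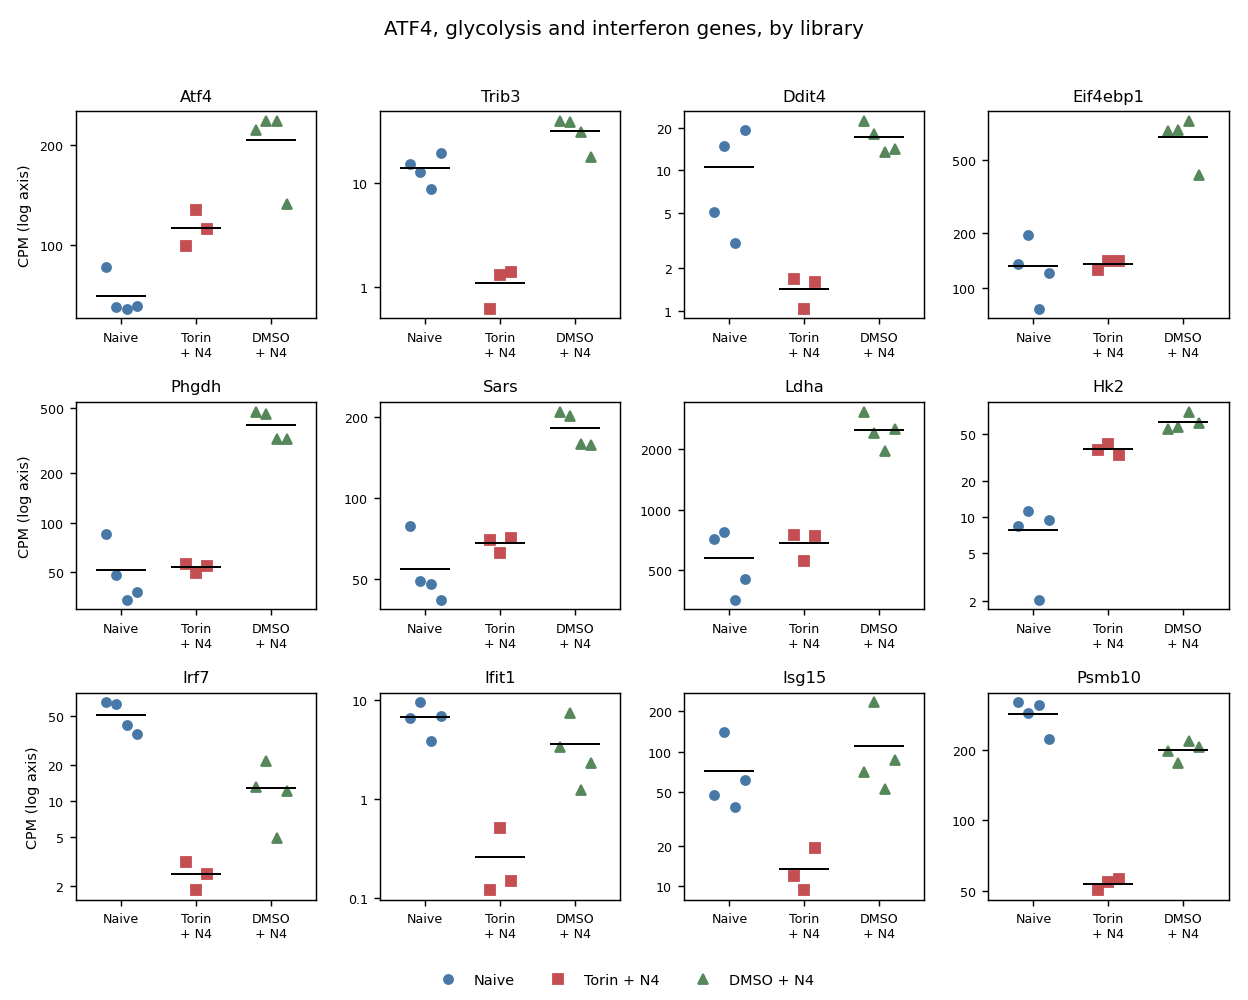
CPM on a log axis in each library for 12 genes of the ATF4, glycolysis and interferon lists, with circles for naive, squares for Torin and triangles for stimulated libraries; each symbol is 1 library and the short line is the group mean. Eif4ebp1, Phgdh and Ldha show Torin libraries among the naive ones and below the stimulated ones, and Trib3, Ddit4, Ifit1, Irf7 and Psmb10 show Torin libraries below both groups.

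Genes of the type I interferon response were lower with Torin and N4 than in untreated cells. These genes encode antiviral proteins and are held at a basal level by tonic interferon signalling through STAT and IRF factors. Of 24 listed genes 21 were lower than naive and 0 higher by edgeR, DESeq2 and an unadjusted p under 0.05 alike (median -2.63), against 8 lower and 1 higher in stimulated libraries (median -0.84), and 10 were lower and 0 higher (edgeR; 1 at an unadjusted p under 0.05 and 1 by DESeq2) in Torin than in stimulated libraries (median -1.90). The 10 became 6 without naive library 3 or stimulated library 2 or 4, 1 without Torin library 1 or 3, 5 without Torin library 4 and 0 without the libraries numbered 4. The median lay between -2.25 and -1.5, and the count against naive stayed between 18 and 21 without any single library. Irf7, the factor that amplifies the response, was at 65.3, 63.5, 42.7 and 35.9 CPM in naive, 3.11, 1.82 and 2.47 CPM in Torin and 13, 21.5, 4.97 and 12 CPM in stimulated libraries. The groups did not overlap in either comparison (Torin minus naive -4.39 ± 0.49, adjusted p = 1.1e-04, and minus stimulated -2.38 ± 0.44, adjusted p = 0.017). Ifit1, which binds viral RNA caps, fell from 6.6, 9.39, 3.85 and 6.83 to 0.12, 0.51 and 0.149 CPM, with 3.31, 7.32, 1.24 and 2.33 CPM in stimulated libraries (adjusted p = 9.2e-04 and 0.02). Isg15, a ubiquitin-like modifier, was at 47.3, 140.2, 38.9 and 61.6 CPM in naive, 11.9, 9.33 and 19.1 CPM in Torin and 70.9, 233, 53.2 and 87.3 CPM in stimulated libraries, with library 2 highest in both of the other groups (adjusted p = 0.01 and 0.024). Bst2, the antiviral tether also listed as a dendritic cell marker, did not differ from naive by the test (-0.28 ± 0.25, adjusted p = 0.44) and was lower than in stimulated libraries (-1.52 ± 0.26). Markers of dendritic cells summed to 742.3 to 1324 CPM with Torin, 1040 to 3311 CPM in naive libraries and 1055 to 1836 CPM in stimulated libraries, and monocyte markers summed to 24.05 to 26.17 CPM with Torin and 143.8 to 2240 CPM in naive libraries. Their part in these falls was not tested.

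The interferon-stimulated response element, searched as GAAANNGAAA on both strands in the same 250-base windows, was found in 8 of the 16 listed genes with a promoter entry (50.0%) and in 3.46% of all 27025 genes of the table. The element binds STAT and IRF complexes. It is shown in capitals for the 4 members that held it and were lower than both naive and stimulated libraries; overlapping matches run together, the matches of Ifit1 and Ifit3 are on the opposite strand, and those of Isg15 and Oas1a on the strand of the gene.
Ifit1 (chr19:34640760-34640838, plus strand): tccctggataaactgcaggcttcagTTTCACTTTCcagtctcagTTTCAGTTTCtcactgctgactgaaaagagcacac
Ifit3 (chr19:34583348-34583441, plus strand): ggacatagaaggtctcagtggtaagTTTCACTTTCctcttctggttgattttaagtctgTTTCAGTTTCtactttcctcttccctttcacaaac
Isg15 (chr4:156200850-156200921, minus strand): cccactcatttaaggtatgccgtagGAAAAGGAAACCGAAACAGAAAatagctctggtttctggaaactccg
Oas1a (chr5:120907526-120907570, minus strand): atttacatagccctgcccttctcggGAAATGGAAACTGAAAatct
Ifit3, a partner of Ifit1, was at 20.1, 15, 15.8 and 13.9 CPM in naive libraries and 0.0272, 0.0436 and 0.273 CPM in Torin libraries, with 3.58, 3.45, 0.192 and 1.41 CPM in stimulated libraries. Oas1a, a sensor of double-stranded RNA, was at 14, 20.4, 20.3 and 22.1 CPM in naive, 2.54, 2.06 and 4.71 CPM in Torin and 13.6, 14.5, 3.74 and 22.3 CPM in stimulated libraries. For both genes stimulated library 3 lay inside the Torin range (adjusted p against stimulated libraries 0.044 and 0.043).

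The inducible catalytic subunits of the proteasome moved apart from the rest of the complex. Of 34 proteasome genes 28 were higher than naive with Torin and 3 lower, and the 3 were Psmb8, Psmb9 and Psmb10, the subunits of the immunoproteasome, a form that interferon induces. With library totals alone 17 were higher and 3 lower. Psmb10 was at 319, 287, 313 and 223 CPM in naive, 50.3, 54.4 and 56.4 CPM in Torin and 197, 176, 218 and 206 CPM in stimulated libraries (Torin minus naive -2.41 ± 0.16, adjusted p = 2.5e-05, and minus stimulated -1.89 ± 0.16, adjusted p = 9.4e-04). Psmb8 fell by 2.83 and Psmb9 by 1.57 against naive, and Psmb8 was also below the stimulated level (-0.78 ± 0.12). Psmb5, the constitutive counterpart of Psmb8, rose from 569, 754, 594 and 539.8 to 1049, 1097 and 1036 CPM. Of 20 interferon-induced GTPases of the GBP and IRG families 11 were lower and 0 higher than naive (edgeR, DESeq2 and an unadjusted p under 0.05 alike), and 0 differed between Torin and stimulated libraries by edgeR (2 at an unadjusted p under 0.05 and 0 by DESeq2). Between those groups edgeR called 4.62% of all genes.

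Some genes lay outside the range of both other groups. Among the 6 with the largest rises by that rule were Cd83, Pou2f2, Ptms, Rasgef1b and Rgs2. Pou2f2, the lymphocyte factor OCT2, was at 12.7, 6.2, 13.4 and 16.6 CPM in naive, 51.2, 57.5 and 60.8 CPM in Torin and 13.2, 3.63, 13.1 and 13.3 CPM in stimulated libraries. Rgs2, a regulator of G protein signalling, was at 23.1, 12.1, 34.3 and 28.7 CPM in naive, 144, 153 and 118 CPM in Torin and 30.7, 22.7, 54.1 and 25.7 CPM in stimulated libraries. The stimulated libraries of both genes overlapped with the naive ones, while Torin minus stimulated was 2.39 and 2.05 (adjusted p = 0.015 and 0.015). Dusp5 and Dusp2, phosphatases that switch off ERK and are induced by it, were also above both groups, Dusp5 at 24.2, 20.4, 17.3 and 29.2 CPM in naive, 364, 394 and 321 CPM in Torin and 114, 152, 119 and 85.8 CPM in stimulated libraries (adjusted p = 0.0058 and 0.025 against stimulated).

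The 6 largest falls below both groups were Cebpb, Ddit4, Isg15, S100a4, Sh2d1a and Trib3. Sh2d1a, the adaptor SAP of the SLAM receptors, was at 148, 132, 211 and 184 CPM in naive, 15.1, 10.5 and 28 CPM in Torin and 159.7, 75.3, 103 and 134 CPM in stimulated libraries (adjusted p = 1.5e-04 and 0.0058). S100a4, a calcium-binding protein of memory cells, was at 49.3, 291, 99.5 and 204 CPM in naive, 4.35, 8.53 and 7.92 CPM in Torin and 20.9, 49.5, 58.6 and 25.1 CPM in stimulated libraries. Cebpb, a factor abundant in myeloid cells and also a listed ATF4 target, was at 89.5, 233, 47.8 and 45.8 CPM in naive, 21.1, 12.5 and 14.2 CPM in Torin and 138, 129, 56 and 53.5 CPM in stimulated libraries. Monocyte markers summed to 143.8 to 2240 CPM in naive, 24.05 to 26.17 CPM in Torin and 16.45 to 116.3 CPM in stimulated libraries, whose part in the fall was not tested. Ubash3a, a phosphatase-family brake on receptor signalling, fell to 2.22, 1.99 and 3.77 CPM from 32.1, 22.4, 31.9 and 35.2 CPM, with 15.4, 13.7, 10.5 and 14.3 CPM in stimulated libraries (adjusted p = 0.0037 against those).

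By size, the 10 largest rises over naive were Ncs1, Ccl1, Prss2, Lag3, Bdh2, Utf1, Spry1, Rgs16, Irf4 and Cetn4. They ran from 5.70 for Ncs1 to 4.63 for Cetn4. Of the 10, 0 differed from the stimulated level by edgeR, at an unadjusted p under 0.05 or by DESeq2, which gave no value for Spry1. In the contrast of Torin with stimulated libraries edgeR called 4.62% of all genes, so 0 of 10 is close to that share. Spry1, a feedback inhibitor of the ERK pathway, was at 13.1, 2.4, 0.212 and 0.295 CPM in naive, 168, 111 and 109 CPM in Torin and 89.5, 44.7, 60.7 and 41 CPM in stimulated libraries. The 10 largest falls were Hp, Slc6a19, Retnlg, Adgrg5, Ifngas1, Fpr1, Cd7, Rpl31-ps3, Fcgrt and S1pr1. Hp, Retnlg and Fpr1 are genes of neutrophils and other myeloid cells, and each was highest in naive library 2, the library with the granulocyte markers. Hp was at 7.38, 152, 2.48 and 6.79 CPM, Retnlg at 4.77, 206, 4.57 and 7.57 CPM and Fpr1 at 8.56, 213, 2.25 and 3.57 CPM in naive libraries, and the part of granulocytes in these falls was not tested. Cd7, a lymphocyte surface glycoprotein, fell from 314, 672, 268 and 678 to 1.14, 1.45 and 3.12 CPM with stimulated libraries at 25.2, 1.37, 0.428 and 1.05 CPM, and Ifngas1, a noncoding RNA beside Ifng, from 22.9, 55.2, 43.1 and 92.4 to 0.225, 0 and 0.253 CPM. Rpl31-ps3 is a pseudogene of a ribosomal protein, and its counts could be split with the parent gene.

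Transcript usage, the share of a gene's counts that each of its annotated transcripts receives, was tested with limma on log2 ratios within 4097 genes. Torin and naive libraries differed in 278 of them (6.79%; 93 without Torin library 1, 110 without Torin library 3, 119 without Torin library 4, 155 without naive library 3, 160 without naive library 4), Torin and stimulated libraries in 24 (0.586%; 13 without naive library 1 or Torin library 3, 14 without Torin library 4, 15 without stimulated library 4), and stimulated and naive libraries in 743 (18.1%). A replicate block gave fewer genes in each of these comparisons, as given in the part on processing. Shares are estimates that the authors' assembly divides among transcripts with common exons, so a transcript's share is less certain than its gene's count. Among 10442 transcripts, 233 took a larger and 158 a smaller share with Torin than in naive libraries. For transcripts annotated as retained intron the counts were 25 larger and 36 smaller of 1256, for transcripts annotated for nonsense-mediated decay 9 and 18 of 725, and for protein-coding ones 162 and 77 of 7658.

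Intron-retaining and decay-annotated transcripts were also summed as a share of all matched counts. Retained-intron transcripts took 4.52%, 4.63%, 4.27% and 3.67% in naive and 3.40%, 3.66% and 3.20% in Torin libraries, a mean of 4.27% ± 0.43 (SD, n = 4) against 3.42% ± 0.231 (SD, n = 3), and 2.95% ± 0.168 (SD, n = 4) in stimulated libraries. Decay-annotated transcripts took 1.99% ± 0.203 (SD, n = 4) in naive, 1.53% ± 0.0303 (SD, n = 3) in Torin and 1.23% ± 0.098 (SD, n = 4) in stimulated libraries. No Torin library overlapped with a naive library in either share, though for retained introns the gap was 3.66% against 3.67%. The exact 2-sided permutation p, taken as 2 times the smaller tail probability, was 0.0571 for both. That is the smallest value this form of the test allows with 35 arrangements of 4 and 3 libraries, so it could not reach 0.05.

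Tra2b encodes a splicing activator that limits itself: its protein promotes inclusion of an ultraconserved poison exon whose stop codon truncates the reading frame. The 276-base exon, included in transcripts annotated for decay, adds 27 codons, stop included. Its coding part is shown because the shares below count the transcripts that hold it. It was read from the reference transcripts (chr16:22259181-22259261, minus strand, build GRCm38), with the stop codon in capitals.
Tra2b poison exon: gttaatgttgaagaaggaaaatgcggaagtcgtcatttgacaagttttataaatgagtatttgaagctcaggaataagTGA
Of Tra2b counts, 65.5%, 67.4%, 69.2% and 68.9% came from transcripts with this exon in naive libraries, 55.2%, 57.3% and 48.0% in Torin libraries and 44.7%, 44.4%, 45.5% and 45.6% in stimulated libraries. The Torin libraries lay between the other groups without touching either, at 53.5% ± 4.89 (SD, n = 3) against 67.8% ± 1.71 (SD, n = 4) and 45.0% ± 0.611 (SD, n = 4). The difference from naive was -14.2 percentage points (exact 2-sided permutation p = 0.0571, the smallest that this form of the test allows). By level, transcripts with the exon stood at 67.7, 72.8, 73.6 and 59.8 CPM in naive libraries and 85.1, 88.3 and 70.5 CPM in Torin libraries. The Tra2b transcripts without it were at 35.7, 35.2, 32.7 and 27.1 CPM in naive libraries and 69.1, 65.7 and 76.4 CPM in Torin libraries. Tra2b as a whole rose by 0.59 ± 0.14 (adjusted p = 0.0072, but 0.19 with library totals alone). In the test of usage over genes, limma gave Tra2b an adjusted p of 0.054 against naive, just above the threshold, and 0.6 between Torin and stimulated libraries.

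Splicing factors with transcripts annotated for decay were among the genes whose usage changed. Usage was called in 4 of 16 tested SR and TRA2 factors and 3 of 28 tested hnRNP and other regulators, where the share over all genes was 6.79%. Srsf3-201, annotated for decay, took 43.1, 44.1, 38.1 and 51.8% of its gene in naive, 26.1, 26.8 and 6.72% in Torin and 28, 25.4, 25.8 and 25.3% in stimulated libraries. Torin library 4 was the lowest of all, and the gene's adjusted p was 0.019. Srsf7-203 took 43.9, 17.8, 37.5 and 39.9% in naive, 9.95, 8.53 and 9.99% in Torin and 4.55, 4.42, 2.18 and 3.2% in stimulated libraries (adjusted p = 0.046). Hnrnpa1-203, of the most abundant hnRNP, took 38.5, 37.6, 38.4 and 49.2% in naive, 19.9, 17 and 17.6% in Torin and 15.8, 19.4, 13.2 and 15.6% in stimulated libraries (adjusted p = 0.022). Hnrnpa1-204, also annotated for decay, went the other way, from 2.73, 6.1, 3.95 and 4.61% in naive to 9.05, 10.3 and 8.99% in Torin libraries. The gene totals of Srsf3, Srsf7 and Hnrnpa1 rose by 1.97 ± 0.21, 1.65 ± 0.22 and 2.32 ± 0.19 with Torin. Khdrbs1, which encodes SAM68, gave its decay-annotated form Khdrbs1-202 34.9, 38.8, 32.2 and 29.2% in naive and 22.9, 13.9 and 11.4% in Torin libraries (adjusted p = 0.027). These adjusted p are for the gene. By limma per transcript, the decay-annotated Srsf3-201 and Khdrbs1-202 did not pass (adjusted p = 0.11 and 0.055). The protein-coding Srsf3-202 and Khdrbs1-201 passed (0.017 and 0.026), as did Hnrnpa1-203 (0.016). The usage calls of Srsf3, Srsf7, Hnrnpa1 and Khdrbs1 were lost without the libraries numbered 4 (adjusted p = 0.119, 0.263, 0.224 and 0.165) and without Torin library 4 alone (0.062, 0.128, 0.0793 and 0.104). Those of Srsf7, Hnrnpa1 and Khdrbs1 were lost also without Torin library 3 (0.136, 0.0877 and 0.096) and without some single naive libraries. Without Torin library 1 those of Srsf7 and Hnrnpa1 were lost (0.128 and 0.0679). With naive and Torin libraries only, the calls of Srsf3, Srsf7, Hnrnpa1 and Khdrbs1 were all lost (0.0733, 0.0925, 0.0629 and 0.0803). These genes were picked from the splicing lists after their values were seen.

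Of the 10 genes with the smallest p for usage, 8 did not differ between Torin and stimulated libraries by the test, and Setdb1 and Car12 did. Few genes of any kind were called in that contrast, 0.586% of the 4097 tested. In Psmb10, whose level fell, the transcript Psmb10-205, annotated as retained intron, went from 0.607, 0.344, 0.331 and 0.322% of the gene in naive to 37.4, 33.8 and 29.1% in Torin libraries, with 24.6, 30.5, 42.2 and 36.8% in stimulated libraries (adjusted p = 4.2e-06 against naive). In Cdk4, the kinase partner of D cyclins, the retained-intron transcript Cdk4-207 went from 5.36, 2.55, 3.75 and 4.06% to 61, 45.4 and 45.9%, with 55.5, 43.3, 49.1 and 42.3% in stimulated libraries. In Fyb, an adaptor for integrin activation, the protein-coding Fyb-201 went from 83.8, 84.9, 89.3 and 85.6% to 14.3, 20.4 and 20.2%, and Fyb-206, annotated as a processed transcript, from 7.11, 9.6, 6.07 and 4.47% to 83.5, 77.5 and 77.2%. In Apobec3, an antiviral deaminase, the decay-annotated Apobec3-215 dropped from 37.2, 39.6, 34.5 and 35.5% to 7.2, 7.82 and 5.93%. Fxyd5, Ankrd12, Cct6a and Ccm2 completed the set together with Setdb1 and Car12. Cd69, a listed receptor, shifted toward the protein-coding Cd69-201, at 34.9, 31.2, 32.3 and 27.8% in naive and 61.5, 67 and 63.3% in Torin libraries (adjusted p = 0.0036). Ptprc, whose exon choice marks naive and memory cells, showed no change past the test (adjusted p = 0.94).

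**Figure D4:**
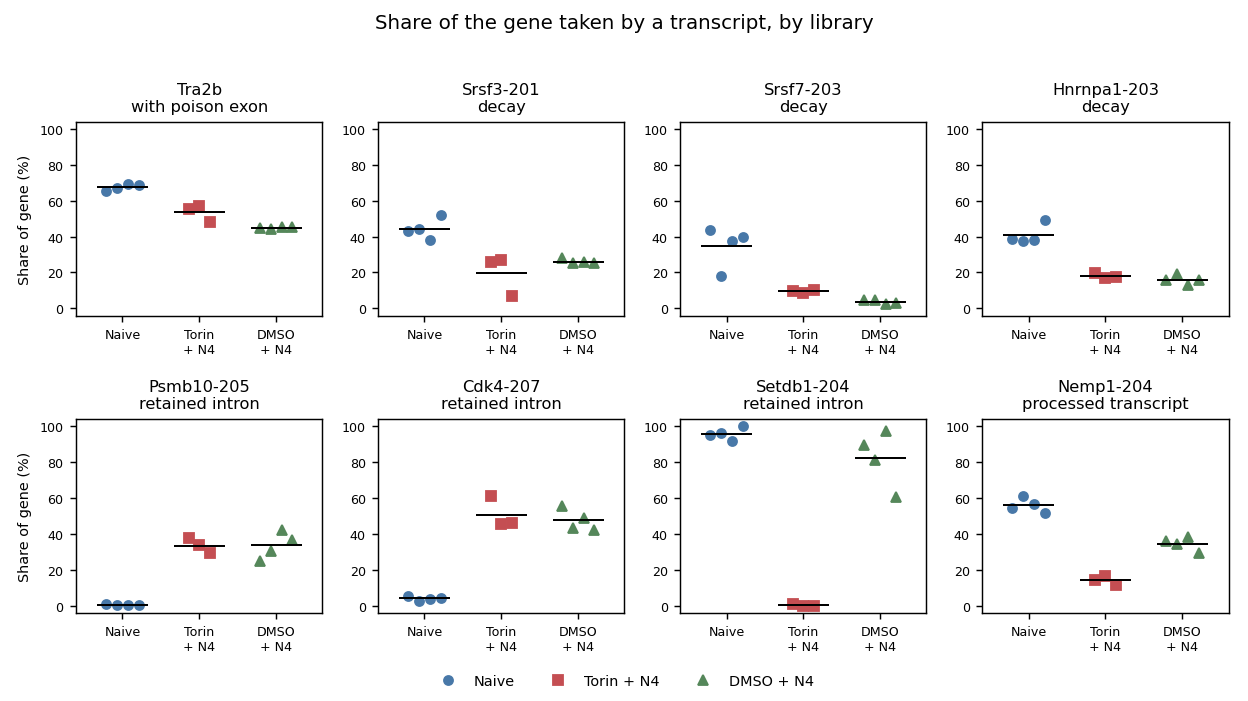
Share of the gene's counts, in percent, taken by 8 transcripts or transcript groups in each library, with circles for naive, squares for Torin and triangles for stimulated libraries; each symbol is 1 library and the short line is the group mean. The Tra2b poison exon group has means of 67.8%, 53.5% and 45.0%, Psmb10-205 and Cdk4-207 rise with Torin as in stimulated libraries, and Setdb1-204 is near 0 in the Torin libraries alone.

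Of the 278 genes 7 were called also between Torin and stimulated libraries. In Setdb1, a histone methyltransferase, the retained-intron transcript Setdb1-204 held 95, 96.1, 91.9 and 100% of counts in naive and 89.4, 81.3, 97.3 and 60.8% in stimulated libraries but 1.11, 0 and 0% with Torin (adjusted p = 4.2e-06 and 1.5e-05). The protein-coding Setdb1-201 took its place in Torin libraries 1 and 4 but not in library 3, with 94.4, 0.755 and 99.6%, so the replicates did not share the replacing form. In Car12, a carbonic anhydrase, Car12-202 was listed at 0 in all 3 Torin libraries and took 76.9, 53, 70.7 and 71.1% in stimulated libraries (adjusted p = 5.1e-04), while naive libraries gave 60.7, 0, 0 and 0% of a gene at 0.845, 0.478, 0.356 and 0.152 CPM there. In Nemp1, a nuclear envelope protein, Nemp1-204, annotated as a processed transcript, took 54.4, 61.3, 56.9 and 51.8% in naive, 14.5, 16.3 and 11.3% in Torin and 36.2, 34.2, 38.1 and 29.1% in stimulated libraries (adjusted p = 0.0012 and 0.035). In Coq10b, the retained-intron Coq10b-203 stood at 20.7, 24, 29.7 and 30% in naive, 10.6, 13.4 and 8.37% in Torin and 1.72, 1.87, 3.51 and 2.36% in stimulated libraries, so the Torin libraries lay in between (adjusted p = 0.019 and 0.02).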

How the data were processed

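mRNA of 11 libraries of OT-I CD8+ T cells was made into cDNA with the SMARTer Ultra-low V4 kit, per the labels' protocols. The authors deposited a table of estimated counts for 55414 genes and another for 142435 transcripts, all whole numbers. The submitters' processing notes name STAR 2.7.1a, SAMtools 1.9, StringTie 2.1.0, R 4.0.5, DESeq2 1.30.1 and build mm39, with no role given. Identifiers were matched to a GENCODE annotation of GRCm38, another build than the authors', for 94.0% of genes and 97.1% of transcripts, and 0 columns were left unused.

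All 11 libraries entered a single edgeR 4.0.16 quasi-likelihood fit of group means (R 4.3.3, composition factors by TMM, filterByExpr with a minimum count of 10, 22238 genes tested), and CPM are on that scale. SE is the absolute log2 difference over the square root of F. Transcript usage was tested with limma 3.58.1 on the log2 ratio of transcript to gene CPM with a prior of 0.5 CPM in each, for transcripts of at least 1 CPM and 5% of their gene, with Simes p per gene and Benjamini-Hochberg adjustment. Shares were compared by an exact 2-sided permutation test. The reads behind an estimated count are unknown, so no counting interval is given, and the number of libraries limits the precision.

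The comparison, the gene lists and the rules were chosen with earlier results of these data known. Genes were named by rule as the 10 largest rises and falls (at least 2-fold, 10 CPM, no overlap between the groups), the 2 largest of each in every list, a set of well-known genes of activation, the 6 largest in each direction outside both other groups, and, for usage, Tra2b, Ptprc and the 10 genes with the smallest p. A few items are not reported here. The other genes in the text were picked from the lists after their values were seen. Alternatives were DESeq2 1.42.0, library totals alone, other filters, naive and Torin libraries only, a replicate block, robust empirical Bayes, other usage settings, and each library left out in turn.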

Additional observations from a re-analysis of the deposited data

Results flagged for a closer look

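In 28 of 342 groups of 4 libraries examined for the genes, shares and transcripts named above, the highest or lowest library stood apart from the rest by Dixon's criterion, which compares its gap to the nearest library with the range of the group. Chance alone gives about 1 in 20 such groups. Naive library 1 stood above the other naive libraries in Atf4 (85.9 CPM), Rgs16 (7.33 CPM), Slc7a5 (11.7 CPM) and Spry1 (13.1 CPM), and in the shares of Psmb10-205 (0.607%), Setdb1-201 (3.71%) and Car12-202 (60.7%). Naive library 2 stood above in Fpr1 (213 CPM), Hp (152 CPM) and Retnlg (206 CPM), and naive library 4 in Mtor (8.52 CPM) and the share of Hnrnpa1-203 (49.2%). Stimulated library 1 stood above the other stimulated libraries in Cd7 (25.2 CPM), Ifngas1 (1.63 CPM), Itgb7 (12.6 CPM), Klf2 (66.0 CPM), Rpl31-ps3 (1.28 CPM), S1pr1 (22.7 CPM), Slc6a19 (4.81 CPM) and Tcf7 (60.02 CPM). It also stood above them in the shares of Fyb-201 (21.1%) and Apobec3-215 (9.33%) and below them in that of Fyb-206 (75.6%). Stimulated library 2 stood above in Fpr1 (25.3 CPM), Mki67 (3.09 CPM) and Retnlg (10.2 CPM) and below in Pou2f2 (3.63 CPM), and stimulated library 4 stood below in Atf4 (133 CPM). The Torin group, with 3 libraries, is too small for this criterion.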

How the results depend on the processing

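No named gene that was called turned its direction under any alternative run. Genes called between Torin and naive libraries numbered 5343 to 7330 without any 1 library. The rises were 2284 with library totals alone (2821 to 3877 without any 1 library), and the falls 2333 without the libraries of number 4 (2522 to 3562). Leaving out the libraries of number 4 or of number 2 was chosen after seeing the data.

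Torin against stimulated libraries gave 2740 genes by DESeq2, 656 with no filter, 338 without number 2, 55 without number 4 and 144 to 1058 without any 1 library. Stimulated against naive libraries gave 5812 with a mean of at least 5 CPM, where fewer genes were tested, and 7922 to 8569 without any 1 library.

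Usage against naive gave 37 genes by diffSpliceDGE, 127 with naive and Torin libraries only, 608 with a prior of 2 CPM, 139 without number 2, 47 without number 4 and 93 to 257 without any 1 library. Between Torin and stimulated libraries it gave 51 with the larger prior, 6 without number 2 and 13 to 25 without any 1 library. Between stimulated and naive libraries it gave 53 by diffSpliceDGE, 1202 with the larger prior, 404 without number 2, 236 without number 4 and 511 to 677 without any 1 library. The causes were not tested.

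Cytokine rises numbered 6 without number 4 (10 to 13 without any 1 library). For genes lower in Torin than stimulated libraries, DESeq2 gave 11 tRNA synthetases, 14 ATF4 genes, 17 glycolysis genes and 18 interferon genes. Library totals alone gave 2 synthetases and 6 glycolysis genes, leaving out number 2 gave 2 synthetases, 5 ATF4 genes and 3 interferon genes, and leaving out number 4 gave 0 synthetases, 1 ATF4 gene, 0 glycolysis genes and 0 interferon genes. Without any 1 library these ranged over 1 to 9 synthetases, 3 to 10 ATF4 genes, 1 to 12 glycolysis genes and 1 to 14 interferon genes. The differences in share without any 1 library ranged from -16.2 to -11.5 points for the Tra2b poison exon, -1.05 to -0.733 for retained introns and -0.52 to -0.373 for decay-annotated transcripts.

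Replicate numbers did not meet the rule used for pairing Torin with naive libraries. Deviations of same-numbered libraries from their group means correlated at 0.08, 0.13 and 0.28 for numbers 1, 3 and 4, with the first not above 0.1. Libraries numbered 4 were nonetheless alike across groups. On the second principal component (17.5% of the variance of 2000 genes) naive, Torin and stimulated library 4 lay at -88.7, -84.4 and -91.6. All other libraries lay between 13.7 and 53.6. Each Torin library correlated best with the naive library of its own number. A replicate block gave 3706 higher and 3688 lower genes against naive, 77 genes with changed usage against naive, 3 between Torin and stimulated libraries and 488 between stimulated and naive libraries. With the block the calls of Ccl1 and Sesn2 against naive, of Atf4, Cdkn1a, Chac1, Iars, Ifit3, Imp3, Tpi1 and Yars against stimulated libraries, and of the usage of Srsf3, Srsf7, Hnrnpa1 and Khdrbs1 were not made, and those of Cd27, Mki67 and Tnf against naive and of Foxp1 and Tcf7 against stimulated libraries were added. As a paired difference the Tra2b poison exon share was -14.3, the retained intron share -0.733 and the decay-annotated share -0.503 points.

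Among the genes called against naive, Nars, Hp, Retnlg, Fpr1, Rpl31-ps3 and Slc6a19 also lost the call without a single Torin library, with adjusted p by edgeR of 0.08, 0.084, 0.1, 0.1, 0.058 and 0.062. Other single libraries also ended calls against naive: naive library 1 for Sesn2 and Ulk1, naive library 2 for Atf4, Fpr1, Gzmb, Retnlg, Sesn2 and Socs1, naive library 3 for Atf4, Nars, Plcg1, Socs1 and Ulk1, and naive library 4 for Atf4, Gzmb and Sesn2. Each of the 3 Torin libraries did so for Fpr1, Gzmb, Hp, Klf2, Retnlg and Ulk1. Torin library 1 did so also for Castor1, Nars and Plcg1, Torin library 3 for Mxd1 and Socs1, Torin library 4 for Rpl31-ps3, Sesn2 and Slc6a19, stimulated library 4 for Ulk1, and each of stimulated libraries 1, 2 and 3 for Sesn2.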

Other observations

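Lysosomal and autophagy genes, many of which the mTOR-regulated factor TFEB can raise, were mostly lower with Torin and N4 than in naive libraries: of 35 listed genes 18 fell and 2 rose (median -0.94), against 21 and 2 in stimulated libraries. Ctsd, a lysosomal protease, was at 304, 416, 267 and 241 CPM in naive, 39.8, 35.9 and 45.9 CPM in Torin and 79.2, 62.1, 30.1 and 49.2 CPM in stimulated libraries. Monocyte markers summed to 143.8 to 2240 CPM in naive and 24.05 to 26.17 CPM in Torin libraries, and granulocyte markers reached 8607 CPM in naive library 2, where Ctsd was highest. Their part in these falls was not tested. The 3 members that differed between Torin and stimulated libraries were all higher with Torin, namely Atg13 and Map1lc3b, of the autophagy machinery, and the cholesterol carrier Npc2 (1.11, 1.12 and 1.20 by edgeR, adjusted p = 0.025, 0.0058 and 0.006). Map1lc3b stood at 318, 283, 335 and 273 CPM in naive, 279, 326 and 294 CPM in Torin and 158, 113, 137 and 143 CPM in stimulated libraries.

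Cholesterol synthesis genes, targets of SREBP, were split. Of 25 listed genes 9 were higher and 4 lower than naive with Torin, where 16.4% of all genes were higher and 15.8% lower. In stimulated libraries 14 were higher and 2 lower, and with library totals alone 3 were higher and 4 lower with Torin. Idi1, an isoprenoid enzyme, rose by 2.78 ± 0.42, while Dhcr7, the last enzyme of the pathway, fell by 2.03. Integrins and homing receptors fell in 12 of 21 cases: Itgb7, the gut-homing integrin chain, went from 136, 101, 118 and 124 to 2.93, 2.35 and 2.75 CPM, and Itgb2, the chain of LFA-1, stood below both groups at 40.3, 39.9, 31.1 and 22.4 CPM in naive, 9.28, 7.25 and 9.28 CPM in Torin and 39.9, 34, 17.6 and 20.9 CPM in stimulated libraries (adjusted p = 8.6e-04 and 0.016). In the BCL2 family the survival gene Bcl2l1 rose from 12.3, 6.11, 6.92 and 7.84 to 44.6, 45.9 and 53.9 CPM (adjusted p = 3.9e-05). Bcl2l11, which encodes the death inducer BIM and is a FOXO target, was at 22.2, 23.2, 47.5 and 31.4 CPM in naive libraries and 23.4, 40.6 and 40.2 CPM in Torin libraries, which overlap, and at 9.55, 7.38, 14.1 and 9.48 CPM in stimulated libraries (adjusted p = 0.015 for Torin against stimulated). Of 24 cytosolic chaperones 15 rose and 1 fell against naive, and 0 differed between Torin and stimulated libraries by edgeR (6 at an unadjusted p under 0.05 and 6 by DESeq2, all lower with Torin). Between those groups edgeR called 4.62% of all genes.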
